A study of Mus musculus with 6 samples.

Results

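A list of 43 type I interferon-stimulated antiviral genes was examined in bone marrow-derived macrophages (BMDMs) given lipopolysaccharide (LPS) for 1 h. Members were the rows of the deposited count table whose Ensembl identifier, without its version, carries one of the 43 symbols in GENCODE M21. All 43 were found among 55335 gene identifiers, and all 43 were among the 15687 genes that passed the filter on low counts. The cells came from femur and tibia marrow of C57BL/6 mice, named WT in all 6 libraries, and were cultured for 6 d with L929-conditioned medium. One group received PBS and the other LPS, the bacterial ligand of TLR4, both for 1 h, and each group held 3 libraries of total RNA that the labels number as batches 1 to 3. The LPS dose of this experiment is not given in the sources used here, and the labels do not say whether the batches were separate animals or cultures, so the p-values below measure only the spread between these libraries.

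Type I interferons are secreted proteins that bind the receptor IFNAR1 and IFNAR2, whose kinases JAK1 and TYK2 phosphorylate STAT factors. STAT2 and IRF9 are parts of the complex ISGF3, which binds the interferon-stimulated response element (ISRE) in front of antiviral genes. In macrophages LPS drives transcription of interferon beta through TLR4, the adaptor TRIF and the factor IRF3, and IRF3 and other interferon regulatory factors can also bind ISRE-like sites themselves.

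The promoters of 6 members are shown because they belong to genes at both ends of the response described below. The windows of Helz2 and Oasl1 belong to the highest log2 fold changes and those of Ifit3b and Ifit2 to the lowest, while Isg15 and Ifit1 were added after their values were seen because they carry several ISRE matches. Each is the RefSeq window (GRCm38.p6) from 250 bases before to 50 bases after an annotated start, 5′ to 3′ on the strand of the gene, and capitals mark matches to the ISRE letters GAAANNGAAA or their reverse complement TTTCNNTTTC. For Ifit2 the first of 2 windows is printed.
Helz2, chr2:181241978-181242277 (minus strand): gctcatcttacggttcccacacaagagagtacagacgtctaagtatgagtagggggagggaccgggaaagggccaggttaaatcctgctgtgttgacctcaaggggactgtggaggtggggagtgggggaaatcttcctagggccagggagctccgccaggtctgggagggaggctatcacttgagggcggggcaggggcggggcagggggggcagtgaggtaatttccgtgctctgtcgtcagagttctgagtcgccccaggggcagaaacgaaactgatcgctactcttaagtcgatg
Oasl1, chr5:114922990-114923289 (plus strand): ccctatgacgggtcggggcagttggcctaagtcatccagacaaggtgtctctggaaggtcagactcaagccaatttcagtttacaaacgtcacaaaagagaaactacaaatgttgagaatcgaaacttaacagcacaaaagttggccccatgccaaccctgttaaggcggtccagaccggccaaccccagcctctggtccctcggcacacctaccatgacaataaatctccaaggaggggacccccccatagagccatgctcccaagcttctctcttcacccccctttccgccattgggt
Isg15, chr4:156200769-156201068 (minus strand): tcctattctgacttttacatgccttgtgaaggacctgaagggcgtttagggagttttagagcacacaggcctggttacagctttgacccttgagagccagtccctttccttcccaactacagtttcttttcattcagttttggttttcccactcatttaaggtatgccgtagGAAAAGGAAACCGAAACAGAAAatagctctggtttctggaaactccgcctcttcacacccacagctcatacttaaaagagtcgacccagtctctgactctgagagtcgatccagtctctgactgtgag
Ifit1, chr19:34640639-34640938 (plus strand): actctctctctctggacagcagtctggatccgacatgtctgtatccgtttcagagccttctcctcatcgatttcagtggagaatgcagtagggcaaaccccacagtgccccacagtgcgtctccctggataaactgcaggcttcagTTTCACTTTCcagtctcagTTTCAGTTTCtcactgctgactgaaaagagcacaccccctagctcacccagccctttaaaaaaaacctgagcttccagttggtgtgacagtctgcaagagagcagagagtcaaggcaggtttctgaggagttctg
Ifit3b, chr19:34607707-34608006 (plus strand): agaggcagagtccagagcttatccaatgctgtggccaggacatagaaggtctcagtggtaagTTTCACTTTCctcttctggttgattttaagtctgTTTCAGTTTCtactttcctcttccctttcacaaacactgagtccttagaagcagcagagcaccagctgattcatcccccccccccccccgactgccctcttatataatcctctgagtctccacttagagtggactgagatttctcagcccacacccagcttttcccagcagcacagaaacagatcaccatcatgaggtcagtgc
Ifit2, chr19:34550444-34550743 (plus strand): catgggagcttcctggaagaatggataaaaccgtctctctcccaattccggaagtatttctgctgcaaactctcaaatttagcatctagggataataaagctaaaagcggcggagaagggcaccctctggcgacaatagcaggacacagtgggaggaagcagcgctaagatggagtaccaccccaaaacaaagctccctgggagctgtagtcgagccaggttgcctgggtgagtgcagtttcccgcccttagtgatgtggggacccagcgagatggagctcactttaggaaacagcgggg
The Isg15 window held 3 overlapping matches, which began at -78, -72 and -66 from the start, and the Ifit1 window held matches at -104 and -85. Ifit3b, whose counts moved the opposite way to those of Ifit1, carried the same 2 sequences at -188 and -154. The windows of Helz2, Oasl1 and Ifit2 held no match, which says only that these letters are not in them.

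After 1 h of LPS, 5 of the 43 antiviral genes rose past both criteria (adjusted p under 0.05 and absolute log2 fold change above 1 in edgeR's quasi-likelihood test, with p-values adjusted by the Benjamini-Hochberg method across every gene tested) and 1 fell. The 5 that rose were Helz2, Oasl1, Ifih1, Isg15 and Rsad2, and the 1 that fell was Ifit2. Over all 15687 tested genes, 10.5% rose and 10.4% fell past both criteria, so the members that rose were about as frequent as among all genes and the 1 that fell was a smaller share with this scaling. By adjusted p alone, 10 members were higher and 27 lower, against 32.9% and 34.9% of all tested genes, and 6 did not pass. The LPS libraries lay all above the PBS libraries in the same 10 members and all below in the same 27, where 33.9% and 36.6% of all tested genes did so. The median log2 fold change was -0.17 over the members and -0.01 over all tested genes. Within the 3 batches, the log2 fold change of Helz2 ran from 2.37 to 2.40 and that of Ifit2 from -1.13 to -1.02. In these bulk RNA samples, fewer cells of a type and less RNA per cell cannot be told apart.

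**Figure D1:**
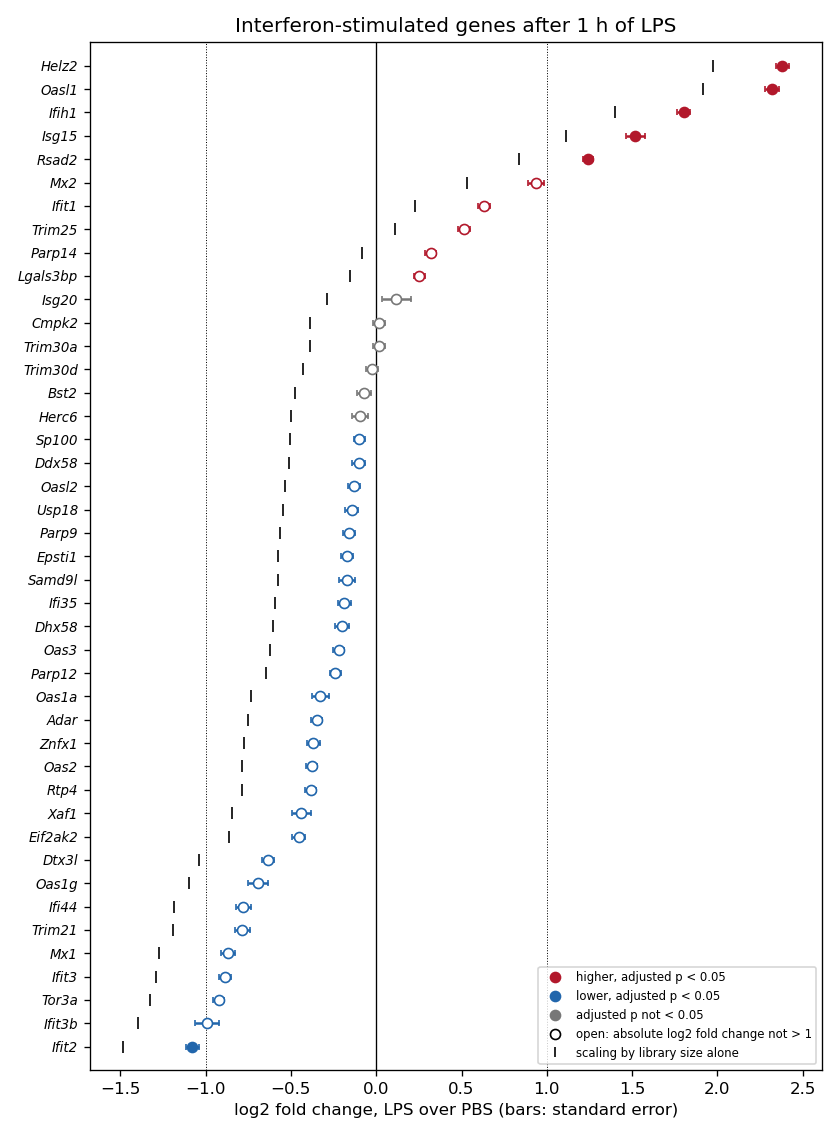
Log2 fold change of LPS over PBS for each of the 43 members (points, with the standard error as bars; 3 libraries a group), filled where both criteria were passed; short vertical marks give the same value when libraries were scaled by total counts alone. From Helz2 at 2.38 to Ifit2 at -1.08 the values form a graded series in which 5 genes lie beyond 1 and 27 genes pass the adjusted p on the lower side, and library-size scaling moves all of them down.

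The fold changes depend on how libraries are scaled, because the TMM factors of edgeR were between 1.148 and 1.153 in PBS and between 0.8642 and 0.8719 in LPS libraries. Scaling by library size alone moved the median of all tested genes by -0.40 on the log2 scale. On that scale 9 members fell past both criteria, where 18.9% of all tested genes did, so their share was near that of all genes. With upper quartile scaling 5 members and 12.6% of all genes fell. With library size alone Rsad2 dropped below the fold criterion at 0.84, and Parp14 (-0.09) and Lgals3bp (-0.15) changed sign. Helz2, Oasl1, Ifih1 and Isg15 rose past both criteria under every scaling tried. Library totals were between 37787611 and 41516330 counts. Of the macrophage markers, 8 of 8 passed the filter and their summed level was 29950 to 31230 normalized CPM (a count divided by library total and TMM factor) in PBS and 35890 to 36250 in LPS libraries. By adjusted p 6 were higher and 1 lower, against 32.9% and 34.9% of all tested genes. Lyz2 made up most of the sum, at 23272 in PBS and 24224 in LPS libraries on average. Cd14 went from 398 to 3623, while Fcgr1 fell (log2 fold change -0.48). Markers of neutrophils, T cells, B cells, dendritic cells and fibroblasts summed to between 41.96 and 42.87 normalized CPM in PBS libraries. In LPS libraries they summed to between 58.53 and 60.85. Of the 11 that could be tested, 6 were higher and 0 lower by adjusted p, against 32.9% and 34.9% of all tested genes. S100a8, S100a9 and Ms4a1 passed the adjusted p only. Zbtb46, Flt3 and Siglech passed both criteria, as 10.5% of all tested genes did. Counts in PBS libraries were low for Zbtb46 (19, 18 and 18), Ms4a1 (12, 14 and 21) and Flt3 (43, 35 and 47). Ly6g, Cd3e, Cd3d, Cd3g and Cd79a were among those below the filter. The part of these markers in the results was not tested.

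Helz2, a helicase with zinc fingers that acts as a coactivator of nuclear receptors (chr2:181227615-181242027), had the highest fold change of the list. Its counts were 7597, 7246 and 6974 in PBS replicates 1, 2 and 3 and 27648, 27211 and 27086 in LPS replicates 1, 2 and 3. The LPS libraries lay far above the PBS libraries, and the normalized level rose from 157 ± 5.11 to 818 ± 19.6 normalized CPM (mean ± SD, n = 3). The log2 fold change was 2.38 ± 0.04 (SE, adjusted p = 9.07e-20 in edgeR's test), and later errors of fold changes are SE and those of levels SD. Among the 11 other effectors and cofactors, to which Helz2 was assigned, 2 were higher and 8 lower by adjusted p. Of all tested genes, 32.9% were higher and 34.9% lower.

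Of the 4 RNA sensors, 1 was higher and 3 were lower by adjusted p, against 32.9% and 34.9% of all tested genes. Ifih1, which encodes the sensor of long double-stranded RNA MDA5 (chr2:62595798-62646255), had 6465, 5647 and 5935 counts in the PBS libraries and 15141, 14493 and 15736 in the LPS libraries. The groups were well apart, and the log2 fold change was 1.80 ± 0.04 (adjusted p = 5.13e-18). Ddx58, which encodes RIG-I, the sensor of 5′-triphosphate RNA, was nearly level, with 8075, 7235 and 7116 against 5157, 4766 and 5124 counts and a log2 fold change of -0.10 ± 0.04 after scaling. Its adjusted p of 0.0217 in edgeR's test rose to 0.0536 with DESeq2 size factors, 0.0681 in the DESeq2 test, 0.116 without PBS replicate 1 and 0.0763 without LPS replicate 2. Dhx58, the regulator LGP2, and Znfx1, a helicase that binds viral RNA, fell with log2 fold changes of -0.20 and -0.37. MDA5 and RIG-I act through the same adaptor, Mavs, which fell by 0.52 on the log2 scale.

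The 4 IFIT genes, whose proteins bind viral RNA or block its translation, lie in 1 cluster on chromosome 19 and did not move together. Ifit2 (chr19:34550694-34576419) had 19644, 17425 and 18530 counts in PBS and 6335, 5903 and 6736 in LPS libraries. Its level fell from 400 ± 13.5 to 189 ± 8.54 normalized CPM, a log2 fold change of -1.08 ± 0.04 (adjusted p = 2.44e-14), so that the member ranked 3 per exon length in PBS ranked 17 in LPS libraries. Ifit3 fell by 0.89 and Ifit3b by 0.99 on the log2 scale. For Ifit3b the counts were 1328, 1281 and 1212 against 398, 498 and 488, and this gene stood just short of the fold criterion, which it passed in 8 of the alternatives, among them those without PBS replicate 3 (-1.03), LPS replicate 2 (-1.07) or LPS replicate 3 (-1.03). Ifit1, the member nearest to Ifit3b on its other side, went the other way with 4654, 4168 and 4333 counts in PBS and 4836, 4773 and 5113 in LPS libraries, and rose by a log2 fold change of 0.63 ± 0.03 (adjusted p = 1.63e-11). In windows as long as a read along their transcripts, 31.3% of Ifit3 and 27.1% of Ifit3b windows also occur in the other gene, so reads between those genes are uncertain, while 3.21% of Ifit1 and 0 of 3925 Ifit2 windows occur in other genes.

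OAS proteins are sensors that turn double-stranded RNA into a signal for RNase L, and OASL1 is a relative without that enzyme activity. Oasl1 (chr5:114923240-114937915) had 1468, 1406 and 1431 counts in PBS and 5193, 5328 and 4974 in LPS libraries. These counts gave a log2 fold change of 2.32 ± 0.04 (adjusted p = 1.22e-18), with no overlap between the groups. The other 5 genes of the family fell: Oasl2 (-0.13), Oas3 (-0.22), Oas1a (-0.33), Oas2 (-0.38) and Oas1g (-0.69). By adjusted p 1 of the 6 was thus higher and 5 were lower, against 32.9% and 34.9% of all tested genes. Oas1a and Oas1g share sequence in 40.6% and 31.0% of their windows, and how their reads were divided is not known. OASL1 is also known in mice as an inhibitor of IRF7 translation. The RNA of Irf7 fell by 0.53 on the log2 scale, and a link to Oasl1 was not tested.

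The Mx genes encode dynamin-like GTPases that block viral nucleocapsids, and in C57BL/6 mice the Mx1 allele is known not to make a functional protein. GENCODE M21 classes Mx2 as a polymorphic pseudogene, so its counts do not speak for a working protein either. Mx1 had 6995, 6336 and 6142 counts in PBS and 2447, 2578 and 2670 in LPS libraries, a log2 fold change of -0.87 ± 0.04 (adjusted p = 2.72e-12). Mx2, the nearest member, had 1235, 1217 and 1132 counts in PBS and 1652, 1560 and 1740 in LPS libraries and rose by 0.94 ± 0.05 (adjusted p = 4.71e-12). The pair moved in opposite directions under every scaling tried.

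In the ISG15 system, the modifier rose and the enzymes around it did not. Isg15, the ubiquitin-like protein that is attached to other proteins (chr4:156199424-156200818), had 1189, 1322 and 1205 counts in PBS and 2562, 2643 and 2482 in LPS libraries. It rose by 1.52 ± 0.05 on the log2 scale (adjusted p = 2.97e-14). Usp18, the protease that removes ISG15 and a brake on the interferon receptor, fell by 0.14 on the log2 scale. Herc6, the ligase that attaches ISG15 in mice, had a value of -0.10 (adjusted p = 0.0795), which passed with the batch number as a block (adjusted p = 0.0181).

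Rsad2, which encodes viperin, a radical SAM enzyme that makes a chain-terminating nucleotide from CTP (chr12:26442746-26456452), had 9104, 8519 and 8611 counts in PBS and 14935, 14579 and 15250 in LPS libraries. It rose by 1.24 ± 0.03 on the log2 scale (adjusted p = 1.36e-16). Cmpk2, the mitochondrial nucleotide kinase whose gene lies head to head with Rsad2, held 5422, 5005 and 5075 counts in PBS and 3742, 3609 and 3960 in LPS libraries. The groups overlapped after scaling, with a log2 fold change of 0.02 (adjusted p = 0.693). The exonuclease gene Isg20 had the lowest level per exon length of the list and a value of 0.12 (adjusted p = 0.220).

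**Figure D2:**
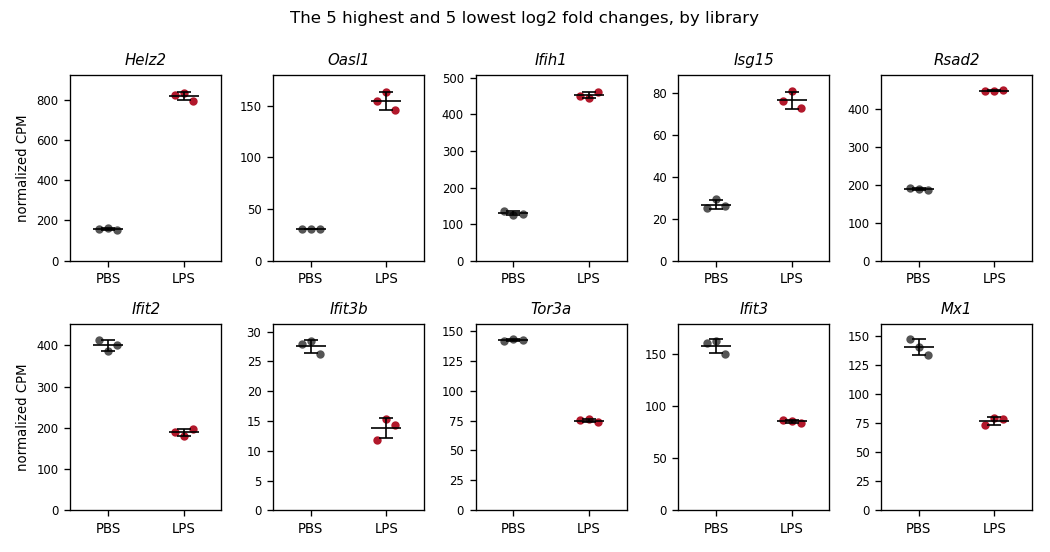
Normalized CPM of the 5 members with the highest (top) and the 5 with the lowest (bottom) log2 fold change, 1 point per library, with the mean and SD of 3 libraries as lines. The panels were chosen by fold change in these same libraries, and the groups do not overlap in any of them. Of all tested genes, 33.9% had all LPS libraries above and 36.6% all below the PBS libraries. Helz2 goes from 157 to 818 and Ifit2 from 400 to 189 normalized CPM on average.

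By adjusted p both enzymes that bind double-stranded RNA fell, as did 34.9% of all tested genes, and neither passed the fold criterion. Eif2ak2, the kinase PKR that stops translation in infected cells, had 5562, 5078 and 5422 counts in PBS and 2832, 2681 and 2935 in LPS libraries, a log2 fold change of -0.46 ± 0.04 (adjusted p = 2.23e-09). Adar, the adenosine deaminase that edits double-stranded RNA, fell by 0.35 on the log2 scale. Adar overlaps Chrnb2 on the opposite strand by 1365 exonic bases, and the strand setting of the counting is not given in the sources used here. Among other members, Ifi35 overlaps Gm11626 on the opposite strand by 290 exonic bases. Herc6 overlaps Gm45193 by 1269 and Rtp4 overlaps Gm45338 by 296, both on the same strand. How reads in these stretches were counted is not known.

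PARP9 and DTX3L form a complex that modifies histones, and their genes run in opposite directions and overlap at their starts. Dtx3l had 9257, 8826 and 9379 counts in PBS and 4256, 4088 and 4423 in LPS libraries and fell by 0.63 ± 0.03 on the log2 scale (adjusted p = 8.80e-12). Parp9 fell by 0.16 and the mono-ADP-ribosyltransferase gene Parp12 by 0.24. Parp14, the next gene along the chromosome, rose by 0.32 (adjusted p = 9.87e-08) with the main scaling and was at -0.09 with library size alone.

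The TRIM genes encode ubiquitin ligases. Trim25, which ubiquitinates RIG-I, rose by 0.52 (adjusted p = 3.76e-10). Trim21, the cytosolic antibody receptor, had 2332, 2248 and 2267 counts in PBS and 993, 925 and 947 in LPS libraries and fell by 0.79 ± 0.04 (adjusted p = 1.45e-11). The neighboring Trim30a and Trim30d had values of 0.02 and -0.02 and did not pass (adjusted p = 0.718 and 0.550).

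Among the remaining effectors and cofactors, 8 fell and Lgals3bp, a secreted glycoprotein that binds galectin-3, rose by 0.25. The furthest down was Tor3a, an ATPase of the torsin family, with 6746, 6464 and 6560 counts in PBS and 2523, 2481 and 2513 in LPS libraries, a log2 fold change of -0.92 ± 0.03 (adjusted p = 2.72e-14). Ifi44 (-0.78), the apoptosis-related Xaf1 (-0.44), the chaperone Rtp4 (-0.38), Ifi35 (-0.19), the restriction factor Samd9l (-0.17), Epsti1 (-0.17) and the nuclear body gene Sp100 (-0.10) also fell. Bst2, which encodes tetherin, the protein that holds budding virions on the cell surface, had the highest level per exon length in both groups. Its value was -0.07 (adjusted p = 0.137), and it passed with the batch number as a block (adjusted p = 0.0387).

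All 43 members were already expressed in PBS libraries, and the 5 that rose past both criteria were not the most abundant. Per kilobase of exon, the levels in PBS ran from 4.28 normalized CPM for Isg20 to 214 for Bst2, and the 5 lay between 11.9 (Oasl1) and 43.6 (Rsad2). In LPS libraries the same 5 lay between 55.4 and 103, and Rsad2 and Isg15 came next after Bst2 and Lgals3bp. Across the 43 genes, the log2 level in PBS and the log2 fold change had a Pearson correlation of -0.19 and a Spearman correlation of -0.10, as a description of genes that share the same 6 libraries. Summed over members, the 5 made up 524 to 542 normalized CPM in PBS and 1925 to 1969 in LPS libraries. The other 38 made up 6017 to 6242 in PBS and 5450 to 5505 in LPS libraries. The sum over all 43 was higher in LPS libraries as normalized CPM (6540 to 6784 against 7402 to 7436) and lower as a share of all counts (0.752% to 0.778% against 0.642% to 0.648%), so its direction depends on the scaling.

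Ratios of neighboring members within a library are free of the scaling between libraries, and 12 pairs less than 200000 bases apart were compared after their values had been seen. The ratio of Oasl1 to Oasl2, whose bodies are 11005 bases apart, was 0.170, 0.180 and 0.181 in PBS and 0.976, 1.02 and 0.902 in LPS libraries. The genes thus went from a clear excess of Oasl2 to about equal counts, a difference of 2.45 on the log2 scale. The ratio of Mx2 to Mx1 moved by 1.80, from 0.177, 0.192 and 0.184 to 0.675, 0.605 and 0.652. That of Ifit1 to Ifit3b moved by 1.64, from 3.51, 3.25 and 3.58 to 12.2, 9.58 and 10.5, and that of Rsad2 to Cmpk2 by 1.23, from 1.68, 1.70 and 1.70 to 3.99, 4.04 and 3.85. The ratio of Parp14 to Dtx3l moved by 0.95. The other differences were 0.47 for Parp9 to Dtx3l and for Oas3 to Oas1g, 0.36 for Oas1a to Oas1g, 0.19 for Ifit3 to Ifit2, 0.16 for Oas3 to Oas2, 0.11 for Ifit3 to Ifit3b and 0.04 for Trim30a to Trim30d. In 10 of the 12 pairs the groups did not overlap, as in 65.4% of 13408 pairs of adjacent tested genes under the same distance limit. Each of the 10 came with p = 0.1 in an exact two-sided permutation test (adjusted p = 0.12 over 12 pairs), which is the smallest p that 3 against 3 libraries allow. The other pairs, Ifit3 to Ifit3b (exact p = 0.7) and Trim30a to Trim30d (exact p = 0.3), overlapped.

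**Figure D3:**
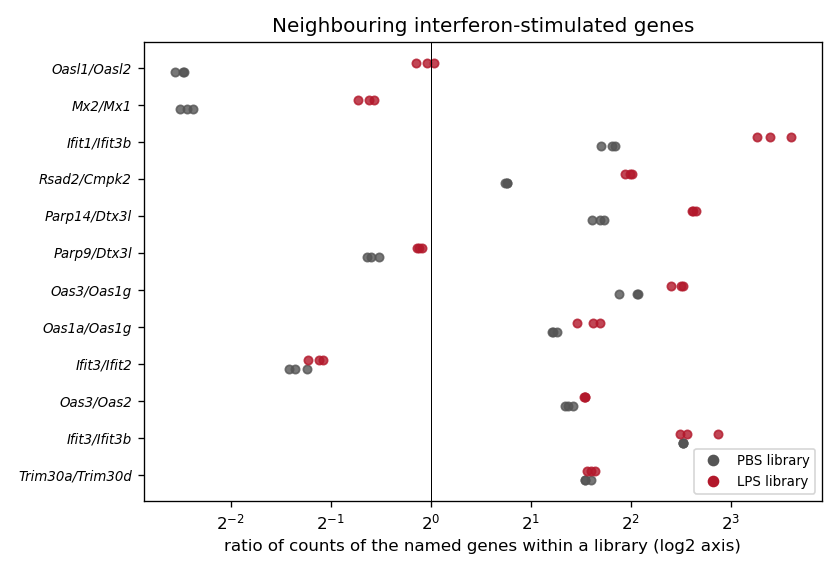
Ratio of the counts of neighboring members in each library (log2 axis), grey for PBS and red for LPS, for 12 pairs ordered by the difference between groups. The Oasl1 to Oasl2 ratio goes from between 0.170 and 0.181 to between 0.902 and 1.02, while Ifit3 to Ifit3b and Trim30a to Trim30d overlap between the groups.

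A RefSeq promoter window was found for 34 of the 43 members; Dhx58, Oas2, Mx1, Mx2, Usp18, Parp9, Parp14, Rtp4 and Tor3a had none. The ISRE letters occurred on either strand in 15 of the 34 (44.1%), against 4.07% of the 10158 tested genes with a window and 3.44% of all 32851 windows. Among members with a window, 4 of 8 that rose by adjusted p held a match (Ifit1, Isg15, Ifih1 and Rsad2) and 8 of 20 that fell (Ddx58, Eif2ak2, Ifit3, Ifit3b, Oas1a, Oas1g, Oas3 and Trim21). The remaining matches were in Bst2, Trim30a and Trim30d. Members of both directions thus carried the letters. The kappaB letters GGGANNTTCC, or their reverse complement GGAANNTCCC, occurred in Ifit2 and Isg20, 5.88% of members against 1.78% of tested genes. The AP-1 letters TGANTCA occurred in 8 members (23.5% against 6.45%), of which Rsad2 rose, and the TATA box letters TATAAA or TTTATA in 4 (11.8% against 8.90%). A match is a description of the letters and not of binding, and ISRE matches in Isg15, Oas1a, Oas1g, Bst2 and Trim21 overlap one another.

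The genes of the interferon pathway, a list of 30 of which 26 could be tested, showed 6 that rose and 1 that fell past both criteria, against 10.5% and 10.4% of all tested genes. By adjusted p alone 14 were higher and 7 lower, against 32.9% and 34.9%, with a median log2 fold change of 0.26. The ligand Ifnb1, which encodes interferon beta, had 6, 2 and 1 counts in PBS and 1318, 1297 and 1447 in LPS libraries. The estimate of 9.22 ± 0.15 on the log2 scale (adjusted p = 1.31e-19) rests on few PBS counts and ran from 8.82 to 10.13 when single libraries were left out, with the highest value without PBS replicate 1. The interferon alpha genes on the list stayed below the filter, with 9, 2 and 9 counts of Ifna1, 0, 4 and 5 of Ifna2, 2, 3 and 6 of Ifna4 and 8, 1 and 5 of Ifna5 in the LPS libraries, and at most 1 count in any PBS library.

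The receptor genes Ifnar1 and Ifnar2 rose by 0.85 and 0.34 on the log2 scale, the latter only with the scalings other than library size. Stat2 and Irf9, parts of ISGF3, fell. Stat2 had 7396, 7219 and 6843 counts in PBS and 1769, 1800 and 1685 in LPS libraries, a level of 154 ± 5.79 against 52.5 ± 2.83 normalized CPM. With a log2 fold change of -1.56 ± 0.04 (adjusted p = 4.85e-16) it was below every one of the 43 antiviral genes. Irf9 fell by 0.38 on the log2 scale. Of the 6 IRF factors, 3 were higher and 2 lower by adjusted p, against 32.9% and 34.9% of all tested genes. Irf5 and Irf3 rose by 0.44 and 0.22, and Irf8 and Irf7 fell by 0.80 and 0.53. With library size alone Irf3 changed sign and Irf5 was at 0.03 (adjusted p = 0.392 in edgeR's test). With upper quartile scaling Irf3 was at 0.07 (adjusted p = 0.129 in edgeR's test). Irf1 rose past both criteria with 6606, 6227 and 5939 counts in PBS and 19295, 19809 and 19778 in LPS libraries (log2 fold change 2.12 ± 0.04, adjusted p = 8.83e-19).

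The 3 negative regulators on the list all rose past both criteria with the main scaling, where 10.5% of all tested genes did. Socs3, an inhibitor of cytokine receptor signaling, went from 451, 498 and 486 counts to 62985, 62674 and 60944, a log2 fold change of 7.49 ± 0.06 (adjusted p = 5.45e-24). Socs1, which blocks JAK kinases at the interferon receptors, had 78, 80 and 94 counts in PBS and 577, 565 and 481 in LPS libraries (3.16 ± 0.11, adjusted p = 2.15e-14). The phosphatase gene Ptpn2 rose by 1.17 and Traf3, an adaptor of the TRIF arm, by 1.05. With library size alone these were at 0.76 and 0.65, and with upper quartile scaling Traf3 was at 0.91, below the fold criterion.

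**Figure D4:**
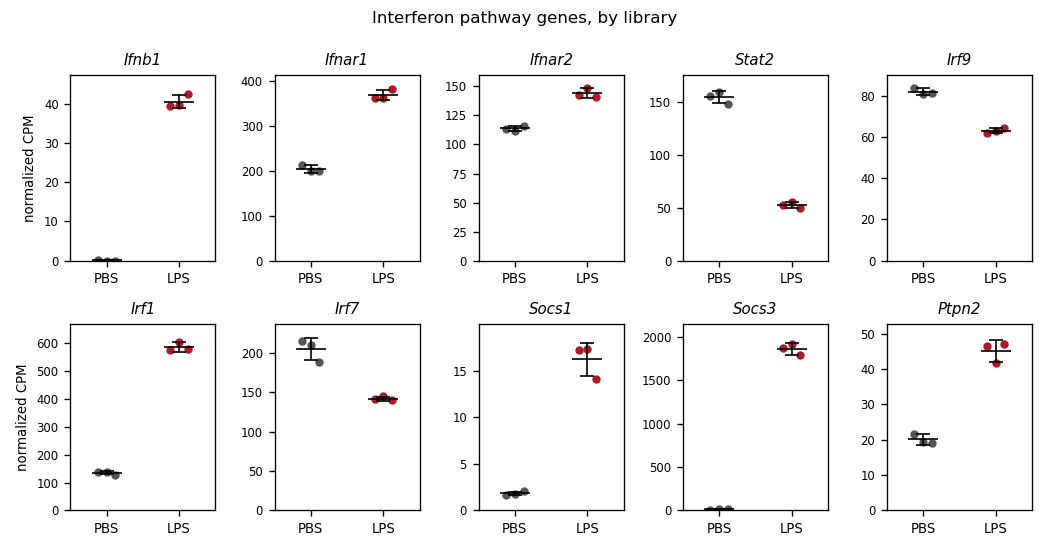
Normalized CPM of interferon beta (Ifnb1), its receptor genes, Stat2, 3 IRF factors and 3 negative regulators, 1 point per library, with the mean and SD of 3 libraries as lines. Stat2 falls from 154 to 52.5, while Ifnb1 rises from 0.0640 to 40.5 and Socs3 from 10.3 to 1863 normalized CPM on average.

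Other interferon-induced genes were described as lists beside the members. Of the 16 guanylate-binding proteins (GBPs) and immunity-related GTPases (IRGs), which attack vacuoles that hold pathogens, 1 rose and 4 fell past both criteria (10.5% and 10.4% of all tested genes did), and the median log2 fold change was -0.49. The highest values were those of Gbp5 (4.27), Gbp3 (0.91) and Gbp2 (0.60), and the lowest those of Tgtp2 (-1.75), Irgm2 (-1.17) and Iigp1 (-1.09). All 7 IRGs were lower by adjusted p, against 34.9% of all tested genes. The annotated bodies of Irgm2 and Igtp overlap on the same strand, and Tgtp1 had only 24, 28 and 28 counts in PBS libraries. Sequence shared between IRGs was not measured, so how reads were divided among them is uncertain. Gbp5 had 651, 619 and 569 counts in PBS and 8642, 8377 and 8626 in LPS libraries and rose further than any of the 43 antiviral genes. Of 24 further interferon-induced genes 23 were tested, 2 rose and 0 fell past both criteria, and the median was -0.19. By adjusted p in edgeR's test 8 were higher and 13 lower, against 32.9% and 34.9% of all tested genes. Their highest values were those of Ifi205 (3.32), Ifi203 (1.64) and Ifitm1 (0.90), the first 2 of which belong to the DNA-sensing family of HIN-200 proteins, and their lowest those of Daxx (-0.82), Phf11a (-0.73) and Phf11b (-0.70).

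**Figure D5:**
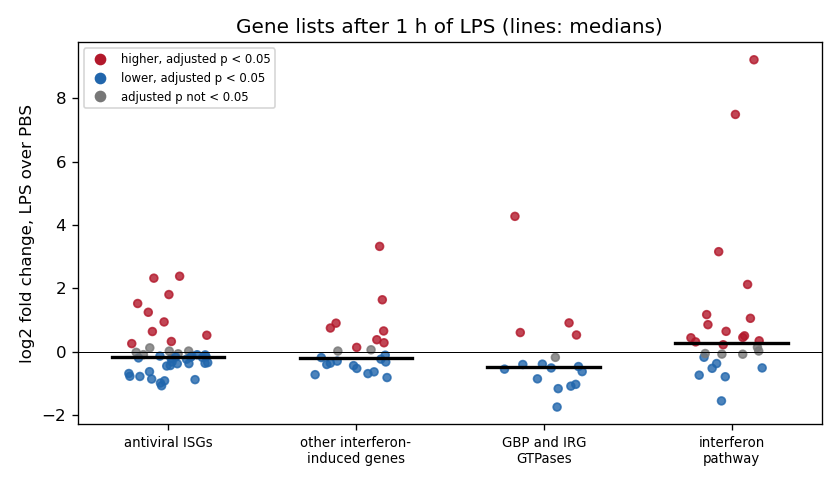
Log2 fold change of LPS over PBS for the tested genes of 4 lists (43 antiviral genes, 23 other interferon-induced genes, 16 GBPs and IRGs, 26 pathway genes), 1 point per gene, with the list median as a bar. The medians lie at -0.17, -0.19, -0.49 and 0.26, and each list holds genes on both sides of 0.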

How the data were processed

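Total RNA of 3 PBS and 3 LPS libraries was compared. Paired-end reads of TruSeq Stranded Total RNA libraries were mapped by the authors to GRCm38 with HISAT2 2.1.0, counted them per gene with featureCounts 2.0.0 (SAMtools 1.17 and FastQC 0.11.9 are also named in the submitters' processing notes) and deposited counts without normalization. The annotation release, strand setting and treatment of reads with several matches are not given in the sources used here. All 6 count columns were used. Of 55335 identifiers, 55154 matched a GENCODE M21 symbol. The filter, scaling and test were filterByExpr, TMM and the quasi-likelihood test of edgeR 4.0.16 in R 4.3.3, with Benjamini-Hochberg adjustment over 15687 genes; the common biological coefficient of variation was 0.0426. Levels per length are normalized CPM per kilobase of merged exons. Positions are those of GENCODE M21 on GRCm38 and promoter windows those of RefSeq. A gene at 3 counts or fewer was treated as being at the floor, which covers counting error only.

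The members and the other lists were chosen with earlier results of these data known. All members are named by role, with counts for those past both criteria and for the largest change of each role. Counts of Ddx58, Ifit1, Ifit3b, Mx1, Cmpk2, Tor3a and Gbp5 were added after their values were seen. Of the pathway list, genes past both criteria, the ligand, the receptor, Stat2 and Irf9 are named (other genes of that list were added after their values were seen), and of the other 2 lists the 3 highest and 3 lowest. Some items are not reported here.

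The labels call the shared replicate numbers batches, so they pair the libraries. Across genes, what remained of each library after its group mean was removed correlated at -0.0139, 0.0822 and 0.0387 within same-numbered pairs. In differently numbered pairs the correlations ran from -0.0817 to 0.0446. The study's methods name no block, so the main model has none. Alternatives were DESeq2 1.42.0 size factors, library size alone, upper quartile scaling, no filter beyond 1 count, at least 10 counts in every library, limma 3.58.1 voom or DESeq2 as the test, removal of the 10 most abundant genes, each library left out in turn, and the replicate block. Scripts were tested on simulated counts.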

Additional observations from a re-analysis of the deposited data

How the results depend on the processing

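The count of 5 members that rose stayed within 1.5 times under all alternatives, and Helz2, Oasl1, Ifih1, Isg15 and Ifit2 kept their calls in each. The count of members that fell, 1, became 9 on library size and 5 on upper quartiles. It became 2 with no filter beyond 1 count, with at least 10 counts in every library and with limma voom, in each case by the addition of Ifit3b. It ran from 1 to 2 when single libraries were left out, being 2 without PBS replicate 3, LPS replicate 2 or LPS replicate 3. The members' median became -0.58 on library size and -0.31 on upper quartiles, where the median of all genes moved by -0.40 and -0.14. Pathway genes that fell were 3 with library size alone (Stat2, Irf8 and Tlr4), and those that rose were 10 with no filter beyond 1 count, when 30 could be tested. The calls added there were those of Ifna1, Ifna2, Ifna4 and Ifna5, which had at most 9 counts in any library. Over all genes, 1213 rose and 2964 fell past both criteria on library size, 1467 and 1975 on upper quartiles, and 1141 and 1027 with at least 10 counts in every library.

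Signs changed for genes whose main value was between 0.016 (Trim30a) and 0.34 (Ifnar2). With library size alone these were Cmpk2 (-0.39), Isg20 (-0.29), Parp14 (-0.086), Trim30a (-0.39), Lgals3bp (-0.15), Ifnar2 (-0.064), Jak1 (-0.10), Tyk2 (-0.39), Irf3 (-0.19) and Cgas (-0.27). Of them Ifnar2, Parp14 (0.32), Jak1 (0.31), Lgals3bp (0.25) and Irf3 (0.22) were higher by adjusted p with the main scaling. On library size all but Ifnar2 (adjusted p = 0.0874 in edgeR's test) were lower by adjusted p. With upper quartile scaling they were Cmpk2 (-0.13), Isg20 (-0.025), Trim30a (-0.13), Tyk2 (-0.12) and Cgas (-0.0060). With no filter beyond 1 count they were Cmpk2 (-0.0084), Trim30a (-0.0089) and Tyk2 (-0.0068), and with at least 10 counts in every library Cmpk2 (-0.00059) and Trim30a (-0.0012). When single libraries were left out, Cmpk2 ran from -0.011 to 0.031 and Trim30a from -0.013 to 0.041; both were below 0 without LPS replicate 3, and Trim30a also without PBS replicate 2 (-0.012). Cgas, at 0.14 with an adjusted p of 0.0557 in edgeR's test, passed with the replicate block (adjusted p = 0.0397), as did Herc6 and Bst2. The replicate block left the counts of members at 5 and 1 and changed no other call. The scalings move all genes by the same amount within a library, and no other cause of these changes was tested.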
